A study of Mus musculus with 9 samples.

Results

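The genes described here encode the translocases that import proteins into mitochondria and the SLC25 carriers that move metabolites across the inner mitochondrial membrane. They were chosen by name alone, as symbols starting with Timm or Tomm and a digit for the translocases and with Slc25a and a number for the carriers, and pseudogenes were left out. The rule found 46 of the 11802 genes measured, 19 translocases and 27 carriers. The gene annotation (GENCODE M21) holds 25 and 47 genes with such names, so 6 translocases, among them the intermembrane chaperones Timm9, Timm10 and Timm10b, and 20 carriers are not analysed here. The lowest mean of any measured gene was 1.77 CPM (read counts scaled to library depth), and no further filter was applied, so all 46 entered every limma test. A gene near that level may have entered through the group in which it was high, and counts over members are given as descriptions.

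RNA bound to tagged ribosomes was sequenced from the white adipose tissue of mice, in 4 WT and 5 KO libraries. Both groups carried Pdgfb-iCreERT2, an inducible Cre that the Pdgfb promoter drives in endothelial cells, and the Rpl22HA allele, which Cre switches to a ribosomal protein with an HA tag. The WT mice were Pdgfb-iCreERT2:Rpl22HA, with Mfn2 labelled present in endothelial cells, and the KO mice were Pdgfb-iCreERT2:Mfn2iΔEC:Rpl22HA, which lack Mfn2 in those cells by label. Mfn2 encodes mitofusin 2, a mitochondrial outer membrane protein of mitochondrial fusion, and the series compared endothelium with and without it. The labels give no age, induction scheme or batch, and they call the replicates biological but name no animals, so a p-value here speaks to the spread among libraries, which may be technical in part. The tag marks ribosomes of cells in which Cre acted, but the capture was made from a whole tissue homogenate. In such a capture, fewer cells of a type and less RNA per cell cannot be told apart.

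Most mitochondrial proteins are made in the cytosol and enter through the TOM complex of the outer membrane. Precursors with a cleavable presequence then pass the TIM23 complex, whereas carrier precursors are escorted by small TIM chaperones to the TIM22 complex, which inserts them into the inner membrane. The SLC25 carriers are the main clients of that route to TIM22. They exchange ADP for ATP and bring in phosphate, and others carry organic acids, amino acids, cofactors, nucleotides and iron, which couples mitochondrial chemistry to the rest of the cell.

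Every value below has to be read against a shift of nearly all genes between the groups. The 12S and 16S rRNAs of the mitochondrial genome took 64.8%, 47.5%, 48.3% and 13.9% of the reads of WT1 to WT4, and between 12.8% and 25.2% in the KO libraries. In the deposited CPM the median gene was 1.10 higher in KO on the log2(CPM + 1) scale, and limma called 3780 of 11802 genes higher (32.0%) and 24 lower (0.203%) at an adjusted p under 0.05. Differences are therefore given on 2 scales: in deposited CPM, and relative, after subtracting each library's median log2 value. In the relative fit 13 genes were called in either direction (0.11%), and the median gene was at 0.12. Depth ran from 1034753 listed reads (WT4) to 3829355 (KO5), and 1 read was worth 0.257 to 0.95 CPM. Counted over the whole gene, Mfn2 RNA did not fall with the KO label. It was at 36.1 ± 15.0 CPM (SD, n = 4) in WT and 66.7 ± 37.0 CPM (SD, n = 5) in KO, with a relative difference of −0.16 (limma adjusted p = 0.898). A value for the whole gene does not show which exons were read, so the loss of Mfn2 could not be checked here. Directions below are therefore between libraries labelled WT and libraries labelled KO.

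RNAs of both classes made up more of the deposited CPM in the KO libraries. The 19 translocases together were at 172 to 335 CPM in the WT libraries and 429 to 762 CPM in the KO libraries, and the 27 carriers at 180 to 401 and 421 to 1248 CPM. As a share of reads outside the 2 mitochondrial rRNAs, the translocases took 0.0396% to 0.0543% in WT and 0.0582% to 0.0887% in KO, ranges that did not overlap. The carriers took 0.0473% to 0.0587% in WT and 0.0571% to 0.145% in KO, and here KO2 lay below WT2. Leaving out these rRNAs did not remove the general shift. With CPM rescaled without them, the median gene was still 0.593 higher in KO on the log2(CPM + 1) scale. The medians of translocases and carriers were 0.65 and 1.035, with 0 of either called, beside 0.212% of all genes. KO5 was the highest library for 19 of the 46 genes, KO1 and KO4 for 9 each, KO3 for 7 and WT4 for 2. The sums of KO5, 762 and 1248 CPM, were the highest of all 9 libraries.

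**Figure D1:**
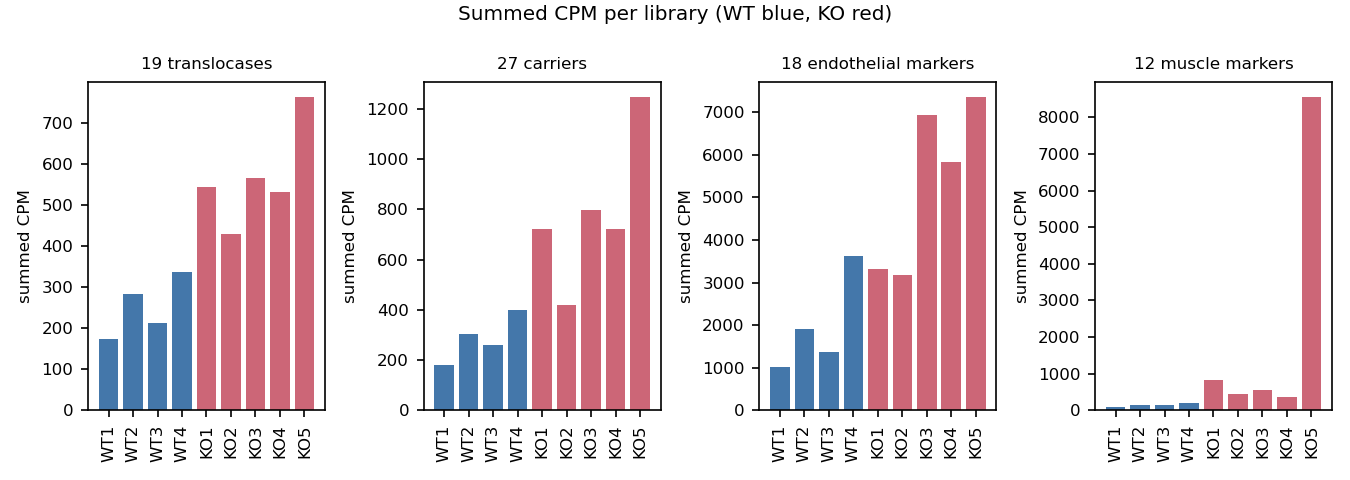
Summed CPM of the 19 translocases, the 27 carriers, 18 endothelial markers and 12 skeletal muscle markers, with a bar for each library (WT blue, KO red) and axes that start at 0. The translocase and carrier sums of all 5 KO libraries lie above those of the 4 WT libraries, and KO5 holds 8553 CPM of muscle markers against 355 to 824 CPM in the other KO libraries.

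Of the 19 translocases, 7 were called higher in KO in deposited CPM (36.8%, beside 32.0% of all genes) and 0 lower. They were Tomm7, Timm22, Tomm20, Timm8a1, Timm29, Tomm70a and Tomm5. All 19 differences were above 0, as were 11159 of all 11802 genes, and the median of the 19 was 1.04, beside 1.10 for all genes. In 4 translocases every KO library lay above every WT library (18.7% of all genes did so). In the relative fit 0 translocases were called, and 3 reached an unadjusted p under 0.05 (15.8%, beside 11.7% of all genes). In that fit 12 of 19 differences were above 0 (63.2%, beside 57.9% of all genes), and the median was 0.06, beside 0.12 for all genes. The deposited count fell to 3 without WT1, WT3, KO3, KO4 or KO5, each left out in turn, while the share of all genes called fell to 9.35%, 15.3%, 14.4%, 17.8% and 15.6%.

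Of the 27 carriers, 10 were called higher in deposited CPM (37.0%, beside 32.0% of all genes) and 0 lower. They were Slc25a4, Slc25a3, Slc25a5, Slc25a25, Slc25a24, Slc25a32, Slc25a33, Slc25a37, Slc25a10 and Slc25a44. All 27 differences were above 0, again beside 11159 of all 11802 genes, with a median of 1.39, beside 1.10. In 6 carriers the KO libraries all lay above the WT libraries, again beside 18.7% of all genes. In the relative fit 0 carriers were called, and 2 reached an unadjusted p under 0.05 (7.41%, beside 11.7% of all genes). There 19 of 27 differences were above 0 (70.4%, beside 57.9% of all genes), and the median was 0.41, beside 0.12. The deposited count fell to 3 without WT1 or KO3, to 5 without WT3 or KO5, and to 6 without KO4. Neither share of members called was far from the share of all genes.

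**Figure D2:**
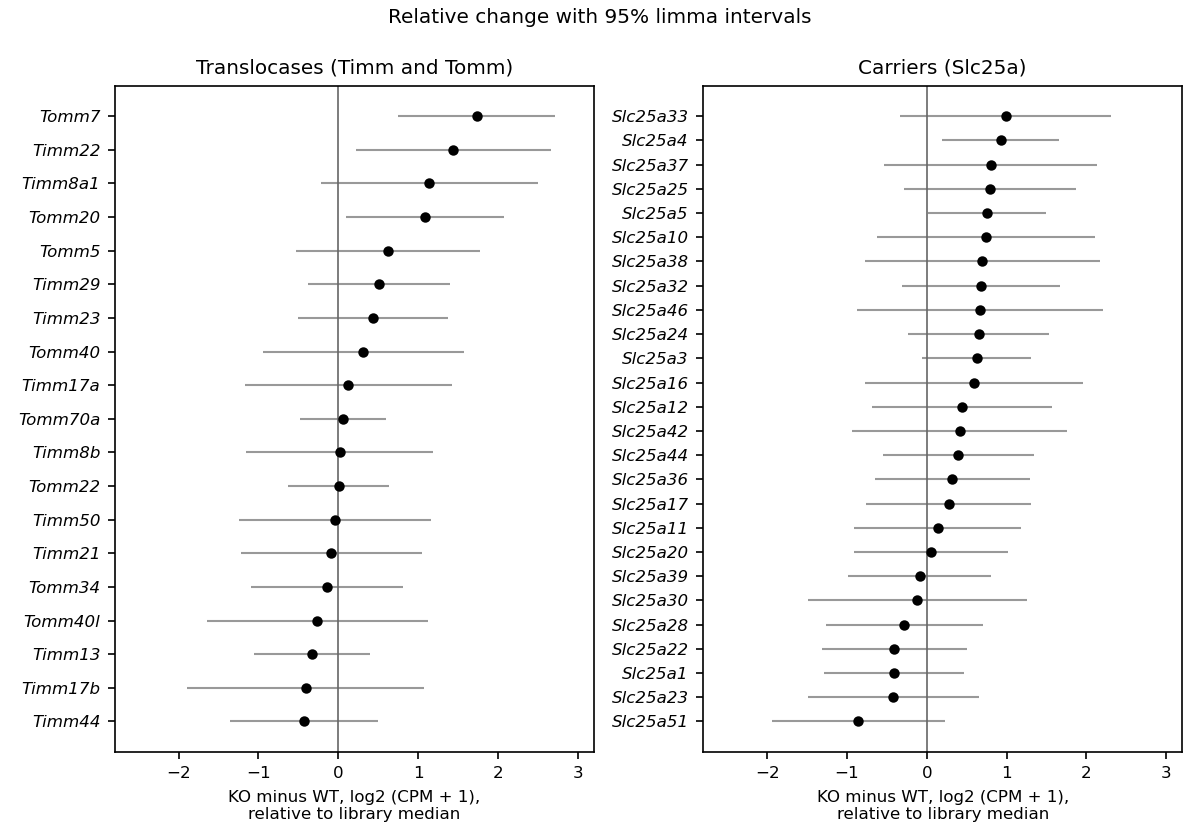
Relative difference between KO and WT (log2 (CPM + 1) after subtracting the library median) for the 19 translocases and 26 of the carriers, with points for the estimates and bars for 95% limma intervals. Tomm7 lies farthest to the right at 1.74 and Slc25a51 farthest to the left at −0.86, and no gene shown passed the adjusted threshold.

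Promoter sequences were searched because import and carrier genes are known as targets of nuclear respiratory factors, which bind NRF1 motifs and, for NRF2 (GABP), ETS motifs. RefSeq promoters of GRCm38.p6, running from 250 bases before to 50 after the start, were matched by symbol for 37 of the 46 genes, with 44 promoters in all. The ETS core CCGGAAGT, on either strand, was found in 4 of the 44 (9.09%) and in 3.89% of 32851 promoters. The NRF1 core GCATGCGC, on either strand, was found in 1 of the 44 (2.27%) and in 2.71% of all promoters. These are matches of letters and not measured binding sites, and a promoter without them was only searched within this window. The stretches around the 5 matches are shown because they hold the letters found, 5′ to 3′ on the strand of the gene, with the match in capitals (ACTTCCGG is the ETS core on the other strand).
Tomm70a, chr16:57121588-57121687, plus strand: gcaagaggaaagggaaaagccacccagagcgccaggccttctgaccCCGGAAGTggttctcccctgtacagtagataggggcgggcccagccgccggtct
Timm29, chr9:21592472-21592562, plus strand: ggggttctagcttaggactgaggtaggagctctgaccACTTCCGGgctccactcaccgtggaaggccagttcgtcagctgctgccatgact
Timm23, chr14:32201892-32201985, minus strand: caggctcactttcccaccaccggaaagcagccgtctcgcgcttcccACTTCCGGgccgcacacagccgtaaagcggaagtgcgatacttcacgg
Slc25a20, chr9:108662011-108662110, plus strand: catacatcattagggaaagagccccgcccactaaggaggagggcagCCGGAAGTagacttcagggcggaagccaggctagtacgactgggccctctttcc
Timm13, chr10:80901108-80901207, minus strand: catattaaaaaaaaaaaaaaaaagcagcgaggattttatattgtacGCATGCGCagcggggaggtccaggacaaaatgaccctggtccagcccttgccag
Of these 5 genes, Tomm70a and Timm29 were called higher in deposited CPM, and the relative differences were 0.06 (Tomm70a), 0.51 (Timm29), 0.43 (Timm23), 0.06 (Slc25a20) and −0.33 (Timm13), none of them called.

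Of the receptors of the TOM complex, Tomm20 and Tomm70a were called higher in deposited CPM and Tomm22 was not, and the differences between them were not tested. Tomm20 (ENSMUSG00000093904; GRCm38 chromosome 8, 126930667 to 126945844, minus strand) encodes a receptor that recognises presequences. Tomm20 CPM was 3.15, 7.52, 3.15 and 4.75 in WT1 to WT4 and 9.71, 18.2, 24.9, 30.5 and 33.7 in KO1 to KO5. Every KO library lay above every WT library, with KO1 the lowest of the KO group. The deposited difference was 2.06 (SE 0.562, limma adjusted p = 0.011) and the relative difference 1.09 (95% interval 0.10 to 2.08, adjusted p = 0.381).

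Tomm70a, the receptor that takes up carrier precursors and other internal signals (ENSMUSG00000022752, the gene whose promoter stretch is shown above), was the best covered translocase, with 433 reads over the WT libraries and 1689 over the KO libraries. Its CPM was 41.4, 62.1, 46.8 and 90.3 in WT and 99.9, 96.5, 136, 124 and 146 in KO. The groups did not overlap in deposited CPM, with a difference of 1.04 (SE 0.40, adjusted p = 0.0438). Relative to the library median it was at 2.41 ± 0.152 in WT and 2.47 ± 0.143 in KO (SD, n = 4 and 5), a difference of 0.06 with a 95% interval of −0.48 to 0.60. On the recovered reads the difference turned to −0.04 in both edgeR (adjusted p = 0.971) and DESeq2 (adjusted p = 0.959), which rescale libraries to each other. The deposited call was lost without WT1, WT2, WT3, KO3, KO4 or KO5, with differences from 0.88 to 1.25 over the 9 libraries left out in turn.

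Tomm22, the central receptor that holds the complex together (ENSMUSG00000022427), was at 24.3, 41.9, 29.9 and 73.2 CPM in WT and 45.2, 84.1, 87.6, 85.5 and 97.2 CPM in KO. WT4 was above KO1, so the groups overlapped, and the deposited difference of 0.98 was not called (adjusted p = 0.0669). It was called without WT4 (1.28, adjusted p = 0.0116) or without KO1 (1.17, adjusted p = 0.0408). The relative difference was 0.00 with an interval of −0.63 to 0.64. Per kilobase of exon, Tomm22 had the highest mean of the translocases over the 9 libraries, 38.3 CPM per kb.

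Tomm7 stood at the top of the translocases in both fits. It encodes a small TOM subunit that affects how the complex assembles (ENSMUSG00000028998; chromosome 5, 23838944 to 23844161, minus strand). Its CPM was 2.70, 9.49, 11.03 and 8.55 in WT and 31.6, 21.5, 72.9, 45.1 and 176 in KO. The groups did not overlap, and KO5 was far above the next library. The deposited difference was 2.71 (SE 0.534, limma adjusted p = 0.00273) and kept its call with each library left out in turn (2.28 to 3.03). The relative difference was 1.74 (SE 0.471, 95% interval 0.76 to 2.72), which did not pass the threshold (adjusted p = 0.149). Relative values of all 5 KO libraries were still above those of all 4 WT libraries, which held for 2.07% of all genes, while 1.74% had all KO libraries below. Tomm7 was the member with that pattern, 1 of 46, and 0 members had the opposite pattern.

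On the recovered reads DESeq2 called Tomm7 higher, by 1.97 (adjusted p = 0.0164). It gave an adjusted p for 4009 genes and called 31 of those higher (0.773%) and 124 lower, and Tomm7 was the sole member called among the 5 translocases and 4 carriers with an adjusted p. edgeR gave nearly the same difference, 1.96, with an adjusted p of 0.176. Without KO5 the relative difference was 1.36 (adjusted p = 0.374), and with the skeletal muscle list mean as a covariate it was 0.96 (adjusted p = 0.993).

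Tomm40, the pore of the TOM complex (ENSMUSG00000002984), was at 7.12 ± 4.96 CPM (SD, n = 4) in WT, where WT4 had 1 read, and 15.4 ± 3.38 CPM (SD, n = 5) in KO, and was not called (deposited 1.29, adjusted p = 0.0787). Its paralogue Tomm40l was at 2.44 ± 1.85 and 4.99 ± 4.29 CPM, also not called. Tomm5, another small subunit, was at 1.80, 12.3, 1.05 and 9.50 CPM in WT and 6.98, 18.6, 19.5, 15.8 and 18.8 CPM in KO. WT2 and WT4 lay above KO1, and the deposited call of 1.59 (adjusted p = 0.044) held without WT2, WT4 or KO1 but was lost without each of the other 6 libraries. In all, 4 of 7 TOM subunits were called higher in deposited CPM, beside 32.0% of all genes, with a relative median of 0.32, beside 0.12. Tomm34, a cytosolic co-chaperone that is not a subunit, was at 11.2 ± 3.91 and 20.8 ± 8.38 CPM, with a relative difference of −0.14.

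**Figure D3:**
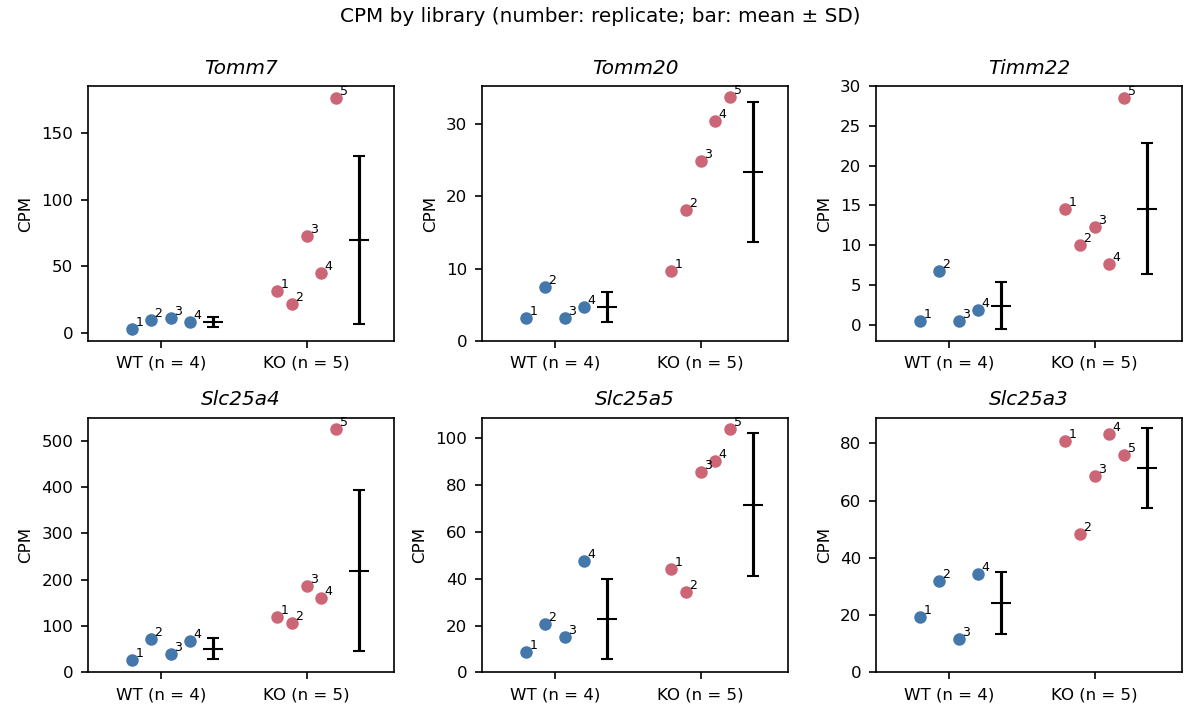
CPM in each library (points, numbered by replicate) of Tomm7, Tomm20, Timm22, Slc25a4, Slc25a5 and Slc25a3 in WT (blue, n = 4) and KO (red, n = 5), with horizontal marks for the mean and bars for the SD. The groups overlap in Slc25a5, where WT4 (47.5 CPM) lies above KO1 and KO2, and KO5 is far above the other KO libraries for Tomm7 (176 CPM) and Slc25a4 (525 CPM).

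None of the 6 subunits of the presequence translocase under the naming rule was called in either fit, beside 32.0% of all genes called higher in deposited CPM. Hspa9, of the import motor, and Romo1, both outside the rule, were called higher in deposited CPM and are given below with the partner genes. Of the same partner list, Grpel1 and Grpel2 were also called higher (limma adjusted p = 0.0484 and 0.0346). Dnajc19 and Dnajc15 were not (adjusted p = 0.195 and 0.0597). For these 6 subunits of the TIM23 complex the median relative difference was −0.06, beside 0.12 for all genes. Of the 6, 4 were below 0, beside 4963 of all 11802 genes. Timm23, the channel, was at 5.98 ± 3.38 CPM (SD, n = 4) and 16.7 ± 5.21 CPM (SD, n = 5), just outside the threshold in deposited CPM (1.41, adjusted p = 0.0513; relative 0.43). Timm17a and Timm17b, alternative partners of the channel, had relative differences of 0.13 and −0.41, and Timm50, the receptor on the inner membrane, and Timm21, which links TIM23 to the TOM complex, −0.04 and −0.09. Libraries of a group could differ widely, and Timm17a was at 18.9 CPM in WT3 and 0.45 CPM, 1 read, in WT1.

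Timm44, which tethers the Hsp70 import motor to the channel (ENSMUSG00000002949; chromosome 8, 4259731 to 4275913, minus strand), had the lowest relative difference of the translocases, with KO1 apart from the rest. Its CPM was 28.8, 55.8, 50.4 and 32.3 in WT and 185, 63.1, 35.0, 38.1 and 45.8 in KO. KO1 carried 608 reads of Timm44 and lay far above the next KO library, while KO3, KO4 and KO5 lay within the WT range. In deposited CPM the difference was 0.54 (SE 0.457, adjusted p = 0.315) and the relative difference −0.43 (interval −1.36 to 0.49). Without KO1 they were 0.135 and −0.85 (adjusted p = 0.811 and 0.274). KO1 was also the library with the highest sum of brown adipocyte markers (4 of 9 listed were measured), 186 CPM against 21.4 CPM in the lowest KO library. Of the 186 CPM, 119 were Ppargc1a, a coactivator of mitochondrial genes, and the other 3 markers summed to 66.8 CPM in KO1, 15.2 to 25.2 CPM in the other KO libraries and 4.75 to 36 CPM in WT. The general adipocyte markers other than Fabp4 also had their highest sum in KO1, 4292 CPM, against 1082 to 2711 CPM in the other libraries. With Fabp4 the sum was 11460 CPM in KO1 and was highest in KO5, at 21540 CPM. A fit that held a term for mean adipocyte marker level gave Timm44 a deposited difference of −0.244 (limma adjusted p = 0.781). On the relative scale that fit gave 0.126 (adjusted p = 0.929). The sign was thus opposite to that of the main fit on either scale, with no call. Such a fit covers all 9 libraries and does not single out KO1. The part of adipocytes of either kind in the KO1 value was tested no further.

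Of the carrier translocase the naming rule found 2 measured subunits, and both were called higher in deposited CPM, beside 32.0% of all genes. Agk, an import gene outside the rule, was not called (deposited 0.99, limma adjusted p = 0.15). Timm22, the channel of that translocase (ENSMUSG00000020843; chromosome 11, 76406952 to 76416292, plus strand), was at 0.45, 6.73, 0.53 and 1.90 CPM in WT and 14.6, 10.0, 12.3, 7.61 and 28.6 CPM in KO. The groups did not overlap, although WT2 came within 1 CPM of KO4. The WT values rest on 1, 17, 1 and 2 reads. Timm22 differed by 2.42 in deposited CPM (SE 0.646, limma adjusted p = 0.0101) and stayed called with each library left out (2.13 to 2.93), and the relative difference was 1.44 (interval 0.23 to 2.66, adjusted p = 0.34). With the skeletal muscle list mean as a covariate the relative difference was 0.71.

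Timm29, which joins Timm22 to the TOM complex (ENSMUSG00000048429), was at 7.20, 17.0, 6.83 and 7.60 CPM in WT and 17.0, 21.5, 29.9, 35.7 and 36.3 CPM in KO. WT2 stood apart from the other WT libraries and reached the level of KO1. In deposited CPM it differed by 1.49 (SE 0.512, adjusted p = 0.0281) and by 0.51 in the relative fit (adjusted p = 0.683). The deposited call was lost without WT1, WT3, KO3, KO4 or KO5, with values from 1.37 to 1.77.

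The small TIM chaperones guide hydrophobic precursors through the intermembrane space. Timm8a1 was at 0, 1.58, 0 and 0 CPM in WT and 5.46, 0.96, 4.33, 7.61 and 7.72 CPM in KO. That is 4 reads over the WT libraries and 75 over the KO libraries, a ratio of 10.6 in share of listed reads with an exact 95% interval of 3.97 to 39.9 that covers counting error only. Its WT mean of 0.395 CPM is under the lowest listed mean of 1.77 CPM, so Timm8a1 was measured through its KO level and the direction was set by that. The deposited difference was 2.12 (adjusted p = 0.0252), lost without WT1, WT3, KO3, KO4 or KO5, and relative to the median it was 1.14 (adjusted p = 0.52). Its partner Timm13 was far higher per kilobase, and was at 24.5 ± 11.1 CPM (SD, n = 4) and 37.0 ± 9.75 CPM (SD, n = 5), with a relative difference of −0.33 (interval −1.06 to 0.40). Timm8b was at 3.51 ± 2.29 and 7.22 ± 3.01 CPM, with a relative difference of 0.02. Of 3 small TIMs measured, 1 was called higher in deposited CPM (33.3%, beside 32.0% of all genes).

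Some of these values carry uncertainty from shared sequence. Of the 50-base words in its transcripts, Timm23 shared 57.5% with other annotated genes (Gm10273 foremost), Tomm40l 56.3% with the overlapping gene Nr1i3, and Timm8a1 41.0% with Gm9797. How such reads were assigned is not given in the sources used here. Tomm7 shared 1.02%, Tomm20 6.24%, and Tomm70a, Timm44 and Timm13 shared 0.

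Among the carriers, the group that moves adenine nucleotides and phosphate had 5 of 6 members called higher in deposited CPM (beside 32.0% of all genes), and 4 of 6 with no overlap (beside 18.7%). Its relative median was 0.70, beside 0.12 for all genes, and none of the 6 was called in the relative fit. Slc25a4, the ADP/ATP translocase that predominates in heart and skeletal muscle (ENSMUSG00000031633; chromosome 8, 46206797 to 46211284, minus strand), had the highest mean per kilobase of all 46 genes, 61.5 CPM per kb of exon. Its CPM was 27.5, 72.4, 38.9 and 67.5 in WT and 119, 107, 186, 160 and 525 in KO. No KO library reached down to WT2, the highest WT library, and KO5, with 2040 reads, was far above the next.

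The deposited difference of Slc25a4 was 1.90 (SE 0.437, limma adjusted p = 0.00578), called with each library left out in turn (1.52 to 2.1). The relative difference was 0.93 (interval 0.20 to 1.66, adjusted p = 0.305). Without KO5 it was 0.60, and with the skeletal muscle list mean as a covariate 0.23. Skeletal muscle markers (12 of 15 on the list measured) summed to 71.6 to 186 CPM in WT and 355 to 8553 CPM in KO. The 8553 CPM were in KO5, and the other KO libraries, at up to 824 CPM, were still above all WT libraries. Of the 12, 11 were called higher in deposited CPM (91.7%, beside 32.0% of all genes), and the relative median of the 12 was 2.16. Acta1 was at 292 CPM and Myh4 at 3721 CPM in KO5, and Pvalb and Actn3 were each at 0 CPM in 2 WT libraries. The WT means of Pvalb and Actn3, 1.325 and 1.32 CPM, are under the lowest listed mean of 1.77 CPM, so both were measured through their KO level. Since the muscle sums of all KO libraries lay above those of all WT libraries, this covariate goes along with the group label. For any member, its fit cannot tell muscle RNA from the label. With it 2 of all genes were called in deposited CPM, beside 3804 in the main fit. The part of muscle RNA in the carrier values was tested no further than these leave-out and covariate values.

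Slc25a5, the ADP/ATP translocase of most other tissues (ENSMUSG00000016319; chromosome X, 36795651 to 36798807, plus strand), was at 8.55, 20.6, 15.2 and 47.5 CPM in WT and 44.3, 34.4, 85.5, 90.2 and 104 CPM in KO. WT4 lay above KO1 and KO2. The deposited difference was 1.73 (SE 0.475, adjusted p = 0.0113), called in 8 of 9 leave-outs and not without WT1 (1.38, adjusted p = 0.0578). The relative difference was 0.76 (interval 0.02 to 1.5, adjusted p = 0.413). With the mean of the endothelial markers as a term in the fit the deposited difference was −0.07. In its transcripts 33.8% of 50-base words were shared with other genes, mostly pseudogenes, so its level is uncertain, while Slc25a4 shared 0.

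Slc25a3, which brings phosphate into the matrix for ATP synthesis (ENSMUSG00000061904), was at 19.4, 32.1, 11.6 and 34.2 CPM in WT and 80.7, 48.3, 68.5, 83.2 and 75.9 CPM in KO. Here KO5 did not stand out, and the lowest KO library was above the highest WT library. Slc25a3 differed by 1.61 in deposited CPM (SE 0.439, adjusted p = 0.0111), kept with each library left out (1.31 to 1.80), and the relative difference was 0.63 (interval −0.06 to 1.31, adjusted p = 0.471).

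The calcium-regulated ATP-Mg/phosphate carriers adjust the size of the adenine nucleotide pool. Slc25a25 was at 8.88 ± 2.83 CPM (SD, n = 4) in WT and 15.2, 14.8, 58.4, 26.4 and 84.4 CPM in KO1 to KO5 (deposited 1.77, adjusted p = 0.0175, lost without KO3 or KO5; relative 0.79). With the muscle markers as a covariate these were 0.785 (adjusted p = 0.612) and 0.125, and without WT4 the relative difference was 0.34. Slc25a24 had 6.17 ± 2.31 CPM (SD, n = 4) in WT libraries and 21.1 ± 6.38 CPM (SD, n = 5) in KO libraries (deposited 1.63, adjusted p = 0.0246, lost without WT1, WT3, KO3 or KO5; relative 0.65). In both the groups did not overlap in deposited CPM. Slc25a23 was at 8.15 ± 4.00 and 12.8 ± 6.15 CPM, with a relative difference of −0.42 (interval −1.49 to 0.65).

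Every KO library lay above every WT library in 0 of 3 organic acid carriers and in 1 of 4 amino acid carriers, beside 18.7% of all genes. Slc25a1, the citrate carrier that feeds lipid synthesis, was at 16.7 to 24.7 CPM in WT and 61.0, 13.4, 24.5, 19.9 and 67.1 CPM in KO1 to KO5, so KO1 and KO5 were high and KO2, KO3 and KO4 lay within or below the WT range (relative −0.42, adjusted p = 0.752). Slc25a10, the dicarboxylate carrier, was at 0.45 to 15.2 CPM in WT and 58.6 CPM in KO1 but 6.21 to 17.7 CPM in the other KO libraries. Its deposited call (1.72, adjusted p = 0.043) was lost without WT1, WT2, KO1, KO3 or KO4, and the difference ran from 1.15 (without WT1) to 2.31 (without WT3). Slc25a11, the oxoglutarate-malate carrier, was at 2.63 to 51.3 CPM in WT and 15.3 to 40.1 CPM in KO (relative 0.14).

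Of 4 amino acid carriers measured, 1 was called in deposited CPM (25.0%, beside 32.0% of all genes). It was Slc25a44, known for importing branched-chain amino acids in brown fat, at 8.20 ± 4.18 CPM (SD, n = 4) and 22.1 ± 8.0 CPM (SD, n = 5). Its difference of 1.37 (adjusted p = 0.0466) held when WT4 or KO2 was left out and was lost for each of the other 7 libraries, and the relative difference was 0.40. Slc25a12, an aspartate-glutamate carrier of the malate-aspartate shuttle, was at 3.17 ± 3.10 and 8.64 ± 3.51 CPM. Slc25a22, a glutamate carrier, had a relative difference of −0.41, and Slc25a38, a glycine carrier of haem synthesis, one of 0.70 with an interval of −0.77 to 2.17.

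Among 8 carriers of nucleotides and cofactors, 2 were called in deposited CPM (25.0%, beside 32.0% of all genes). Slc25a32, a folate and FAD carrier, was at 4.50, 5.93, 6.30 and 31.4 CPM in WT and 12.8, 16.3, 55.9, 39.2 and 50.2 CPM in KO. WT4 was far above the next WT library and also above KO1 and KO2. In deposited CPM the difference was 1.66 (adjusted p = 0.0256), lost without WT1, WT2, WT3, KO3, KO4 or KO5, and it was −0.51 with the mean of the endothelial markers as a term (adjusted p = 0.848). Slc25a33, a pyrimidine nucleotide carrier, had 2 reads over the WT libraries and 76 over the KO libraries, a ratio of 21.5 in share of listed reads with an exact 95% interval of 5.74 to 181 for counting error only. Its WT mean of 0.338 CPM is also under the lowest listed mean, so Slc25a33 too was measured through its KO level, which set the direction. The size of its deposited difference moved with the pseudocount, from 1.97 (adjusted p = 0.0333) to 2.55 at 0.5 and 0.81 at 5. Its call was lost without WT1, WT2, WT3, KO1, KO3 or KO5, and its relative difference was 0.99 (interval −0.33 to 2.31).

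The lowest relative difference of all 46 genes was that of Slc25a51, the NAD carrier. It was at 12.2, 7.52, 16.3 and 8.55 CPM in WT and 24.3, 4.30, 7.93, 14.6 and 16.2 CPM in KO, and the groups overlapped throughout. The relative difference was −0.86 with an interval of −1.95 to 0.23 (adjusted p = 0.549). Relative differences of other carriers of this group were 0.32 for Slc25a36 (pyrimidine nucleotides), 0.41 for Slc25a42 (coenzyme A), 0.28 for Slc25a17 (a peroxisomal cofactor carrier) and 0.59 for Slc25a16, none called in either fit.

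Of the iron importers, Slc25a37 (mitoferrin 1, used in haem synthesis) was called in deposited CPM, and Slc25a28 (mitoferrin 2) was not. Slc25a37 was at 2.25, 2.77, 0 and 7.60 CPM in WT and 14.9, 15.8, 5.41, 16.4 and 4.37 CPM in KO, so WT4 lay above KO3 and KO5. Its difference of 1.78 (adjusted p = 0.0395) was lost in 7 of 9 leave-outs, those of WT1, WT2, WT3, KO1, KO2, KO3 and KO4 (1.22 to 2.25), and the relative difference was 0.80. Erythroid markers (5 of 8 measured) ranged from 61.5 to 1038 CPM in WT and 99.3 to 836 CPM in KO. Slc25a39, the glutathione carrier, was at 12.1 ± 5.69 and 24.2 ± 14.2 CPM (relative −0.09). Slc25a20, which carries acylcarnitines for fatty acid oxidation, was at 9.42 ± 6.52 and 18.1 ± 3.98 CPM (relative 0.06). Slc25a46, an outer membrane member tied to mitochondrial shape, had 0 reads in WT3 and KO2 and was at up to 18.01 CPM in KO5 (relative 0.67, interval −0.87 to 2.21), and Slc25a30 had a relative difference of −0.12.

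Related genes were compared within each library, where the scaling of the library cancels only for genes well above the added 1 CPM. It does not cancel for Slc25a33, at 0 to 0.95 CPM in WT, or for Timm8a1, at 0 CPM in 3 WT libraries. Nor does it cancel in WT3 for Timm17b and Slc25a37 (0 CPM) and Tomm40l (0.53 CPM). The same holds in WT1 for Timm17a, Timm8b and Slc25a10 (0.45 CPM each) and in WT4 for Tomm40 (0.95 CPM). In the pairs of all these genes the added 1 and the scaling of the library stay in the ratio. In 9 pairs the log2 ratio of (CPM + 1) was tested with an exact two-sided permutation test over the 126 ways to divide the 9 libraries as 4 and 5, and its smallest possible p is 0.00794. No pair passed, with adjusted p from 0.619 to 0.817, but over 9 pairs a lone pair could not have gone below an adjusted p of 0.0714, however large its change. For Slc25a4 over Slc25a5 the log2 ratio was 1.28 ± 0.559 in WT (SD, n = 4) and 1.45 ± 0.569 in KO (n = 5), a difference of 0.17 (exact permutation p = 0.659, adjusted p = 0.741). Per kilobase of exon, Slc25a4 was above Slc25a5 in 8 of 9 libraries, WT4 being level at 28.7 and 28.9 CPM per kb. The largest differences were those of Timm8a1 over Timm8b (1.13, exact permutation p = 0.167), Slc25a28 over Slc25a37 (−1.08, exact p = 0.206) and Slc25a23 over Slc25a24 (−1.07, exact p = 0.127), each with an adjusted p of 0.619. Slc25a33 over Slc25a36 differed by 0.67, Slc25a10 over Slc25a11 by 0.61, Tomm40 over Tomm40l by 0.58, Timm17a over Timm17b by 0.54 and Slc25a24 over Slc25a25 by −0.14.

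**Figure D4:**
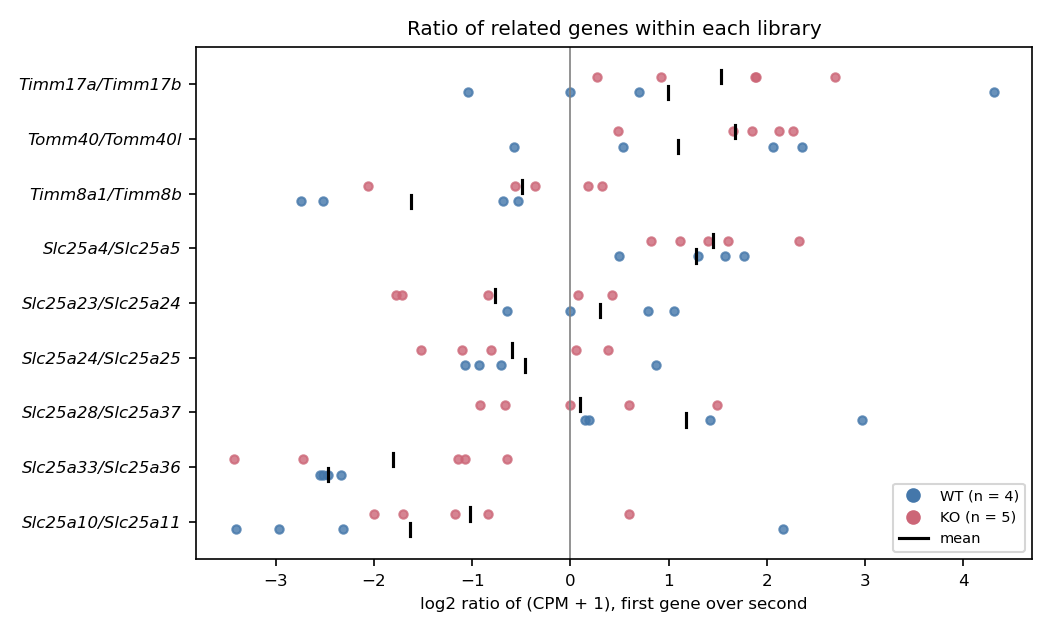
Log2 ratio of (CPM + 1) within each library for 9 pairs of related genes (first gene over second), with points for WT (blue, n = 4) and KO (red, n = 5) libraries and black marks for group means. The ratio of Slc25a4 to Slc25a5 lies between 0.50 and 2.33 in all 9 libraries, and the ranges of the groups overlap in every pair.

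Partner genes of the same machinery that the naming rule leaves out were taken from a list. Of 20 further import genes 17 were measured and 9 of those were called higher in deposited CPM, 0 lower and 0 in the relative fit, with a relative median of 0.41. That is 52.9%, beside 32.0% of all genes called higher. Hspa9, the Hsp70 of the import motor, was at 81.2 ± 25.5 CPM (SD, n = 4) in WT libraries and 235 ± 76.4 CPM (SD, n = 5) in KO libraries (deposited 1.52, adjusted p = 0.00905; relative 0.55). Chchd4, the oxidoreductase of the intermembrane space pathway, had a deposited difference of 2.61 (adjusted p = 0.0106), with 0 reads in 3 WT libraries. Its WT mean of 1.09 CPM is under the lowest listed mean of 1.77 CPM, so Chchd4 was measured through its KO level, which set the direction. Romo1 had a deposited difference of 1.54 (adjusted p = 0.0178). Of 22 other mitochondrial membrane transport genes 21 were measured and 7 were called higher (33.3%, close to the 32.0% of all genes), 0 lower, with a relative median of 0.16. Vdac1, the outer membrane channel through which carrier substrates pass, had 18.6 ± 9.48 CPM (SD, n = 4) in the WT group and 88.0 ± 25.7 CPM (SD, n = 5) in the KO group (deposited 2.30, adjusted p = 0.00273; relative 1.32, adjusted p = 0.229). Ucp2, a carrier family member outside the naming rule, had a deposited difference of 1.61 (adjusted p = 0.0111) and Letm1 one of 1.55 (adjusted p = 0.0136). Ucp1 and Ucp3, by contrast, were at −0.24 and −0.41 in deposited CPM (adjusted p = 0.766 and 0.536).

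Cell type markers differed between the libraries in the same fits. All 18 endothelial markers were measured, at a summed 1013 to 3616 CPM in WT and 3171 to 7359 CPM in KO, and 16 were called higher in deposited CPM (beside 32.0% of all genes), with a relative median of 0.52 and 0 relative calls. Of the 16 adipocyte markers 5 were called higher in deposited CPM (31.2%, beside 32.0% of all genes), with a relative median of −0.31. They summed to 3671 to 7590 CPM in WT and 9467 to 21540 CPM in KO. Fabp4, which adipose endothelium also expresses, held 2589 to 5973 CPM of that in WT and 7167 to 18869 CPM in KO. The other 15 summed to 1082 to 2095 CPM in WT and 1916 to 4292 CPM in KO, ranges that overlapped, and 4 of the 16 (Adipoq, Plin1, Slc2a4 and Cidea) had deposited differences below 0. Fibroblast (8 of 10 measured), macrophage (10 of 10) and pericyte markers (6 of 10) had relative medians of −0.64, −0.33 and −0.02. The part of these cell types in the differences of the 46 genes was not tested beyond the covariate fits, in which 0 translocases and 0 carriers were called with the adipocyte, muscle or endothelial list mean or the mitochondrial rRNA share as a term, beside 0 to 18 of all genes.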

How the data were processed

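Ribosome-bound RNA from white adipose tissue was measured in 4 WT and 5 KO libraries, made from 2 to 5 ng of RNA, per the labels' protocols. The authors deposited CPM for 11802 genes, with no further unit, per the labels. Tools in the submitters' processing notes are HISAT2 2.1.0, Trimmomatic 0.39, FastQC 0.11.9, R 4.0.2 and edgeR 3.32.0, with GRCm38 as a build. Which program counted reads, with what strand setting and annotation, is not given in the sources used here. Symbols and coordinates came from GENCODE M21 (GRCm38) by gene identifier (11787 matched, 15 did not).

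Whole reads were recovered from the CPM steps: at least 99.957% of nonzero values in each library were whole within 0.1 read. Differences were tested with limma 3.58.1 (R 4.3.3, trend) on log2(CPM + 1) over all genes, which understates changes of low genes, as deposited and after subtracting library medians. Benjamini-Hochberg adjusted p under 0.05 was a call. Ratios used exact permutation tests. Alternatives tried were a pseudocount of 0.5 or 5, a minimum mean CPM of 5, quantile normalisation, limma without trend or with array weights, a replicate block, each library left out, covariates, rescaling without mitochondrial rRNAs, and edgeR 4.0.16 and DESeq2 1.42.0 on recovered reads. edgeR without TMM and leaving out WT4 and KO5 together were chosen after seeing the data. Intervals on reads cover counting error only.

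Members and lists were chosen with earlier results of these data known. Genes described in full were the 6 translocases and 8 carriers with the smallest deposited p, the 3 highest and 3 lowest relative differences of each class, the 4 and 6 highest per kb of exon, any member called in the relative fit or below 0 in deposited CPM, both genes of each pair, and the 3 smallest p of each partner list. The other members, Tomm5 and Slc25a44 among them, were added after their values were seen. The single values of 1 carrier, which stays in the counts, sums and medians, are not reported here. Protein sequences and 9 promoters were not analysed here. The pairs with Timm10, Slc25a13 or Slc25a40 were not analysed here.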

Additional observations from a re-analysis of the deposited data

Results flagged for a closer look

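Among 92 groups of libraries (46 genes in WT and in KO), 10 had a highest or lowest library set apart from the rest by more than Dixon's 95% limit on the gap over the range. Chance sets apart about 1 in 20 such groups. KO1 was the library in 3 of them: Timm44 at 184.56 CPM (next 63.1) and Slc25a10 at 58.58 CPM (next 17.7) were high there, and Tomm22 at 45.23 CPM (next 84.1) was low. KO5 was apart for Slc25a4, at 524.73 CPM (next 186), and KO2 for Tomm40, low at 9.56 CPM (next 15.5). In WT, WT2 was high for Timm29 at 17.01 CPM (next 7.60), for Slc25a38 at 9.1 CPM (next 1.35) and for Timm8a1 at 1.58 CPM, where the other WT libraries had 0 reads. WT4 was high for Slc25a32 at 31.36 CPM (next 6.30), and WT3 for Slc25a30 at 16.28 CPM (next 4.05).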

How the results depend on the processing

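In deposited CPM, 7 translocases and 10 carriers were called. Both counts fell to 0 with quantile normalisation, edgeR, rescaling without mitochondrial rRNAs, and the rRNA, adipocyte, muscle or endothelial covariate. DESeq2 called 1 translocase and 0 carriers of the 5 and 4 with an adjusted p. Leaving out each library gave 3 to 9 translocases and 3 to 14 carriers, while the share of all genes called ran from 9.35% (without WT1) to 50.2% (without WT4). edgeR with unscaled library totals called 5 and 6, beside 18% of all genes. With WT4 and KO5 both left out the counts were 8 and 11, beside 43.3%. In the relative fit the counts stayed at 0 in every alternative run except DESeq2, which called 1 translocase, Tomm7. The cause of these changes was not tested. Among members called on the scale as deposited or under the alternative, signs turned for Tomm70a in edgeR (−0.041) and DESeq2 (−0.036), and with the endothelial covariate for Slc25a5 (−0.069) and Slc25a32 (−0.51). Since no lone paralogue ratio could have passed, their p-values do not speak to stability. Of single-gene values in deposited CPM, 870 kept their call or lack of one, 203 lost the call, 29 gained it, and 4 called values changed sign. At 20 reads or fewer over the WT libraries, as in 8 members, depth limits what can be seen.

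With the replicate number as a block, 3 translocases and 5 carriers were called in deposited CPM, beside 16.4% of all genes, and 0 of either in the relative fit. Deviations of same-numbered libraries correlated at −0.04 to 0.04, so the numbers are not taken to pair the samples.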
